A study of Mus musculus with 45 samples.

Results

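The last interval of an embryoid body course, day 12 to day 16, was described in the SCR line, murine embryonic stem cells (ESCs) of strain 129 that carry a scrambled control construct. Its members were 6 of the 45 arrays of the series, 3 of SCR embryoid bodies at day 16 and 3 of SCR embryoid bodies at day 12, chosen by line and day from the labels. They were compared over all 34945 of 45037 probe sets that carry a single gene symbol, which stand for 18193 genes. The series also holds WT ESCs without a construct and ESCs labelled KD, for silencing of Strip2, a gene of the STRIPAK phosphatase and kinase complexes, and each line was profiled as ESCs and at days 4, 8, 12 and 16. All lines were differentiated in the same way, by the hanging drop method, in which ESCs aggregate into embryoid bodies (EBs), and total RNA was hybridised to Affymetrix mouse arrays. Whole EBs were measured, so that fewer cells of a type and less RNA per cell cannot be told apart. The labels do not say that the 3 arrays of a group came from separate cultures, so the p-values here rest on the spread between arrays alone, which may be technical.

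EBs form derivatives of all germ layers in parallel. Visceral endoderm, the outer epithelium that also lines the yolk sac, makes many of the plasma proteins that the liver makes later. The yolk sac also forms the first wave of red cells, which carry embryonic globins and are replaced in the embryo by red cells from the fetal liver. Exocrine pancreas, gut epithelium and neurons come from later steps of endoderm and neural development.

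Values are log2 signals, so that a change of 1 is a doubling, and changes are day 16 minus day 12. Each gene is represented by its brightest probe set. A call is a limma p under 0.05 after Benjamini-Hochberg adjustment over all probe sets with a single symbol. The test pools the spread of a probe set over all lines and stages, also those where a gene is near the floor. Errors and p-values can thus be smaller or larger than the SCR arrays of these days alone would give. Of the probe sets 8.61% were called, 1795 higher and 1213 lower. Of the genes, 1190 (6.54%) rose and 717 (3.94%) fell, and the median change over all genes was -0.04. The rises were larger: 515 genes rose and 88 fell at least 2-fold, and 56 rose and 5 fell at least 8-fold. Of all gene calls, 62.4% were rises, against 51.1% once each array was centred on its median, 51.9% with dim probe sets left out and 70.1% after cyclic loess. All 3 day-16 arrays lay beyond all 3 day-12 arrays in 1803 of the 1907 called genes. The call itself favours such separation, and the share over all genes is not given here. Arrays correlated at 0.9901 to 0.9928 within day 16, at 0.9928 to 0.9947 within day 12 and at 0.9771 to 0.988 between the days, over probe sets, which are not independent. Strip2 read 4.54, 4.40 and 5.60 at day 16, against 4.67, 4.88 and 4.46 at day 12, a change of 0.18 ± 0.19 (SE) that was not called (adjusted p = 0.72).

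**Figure D1:**
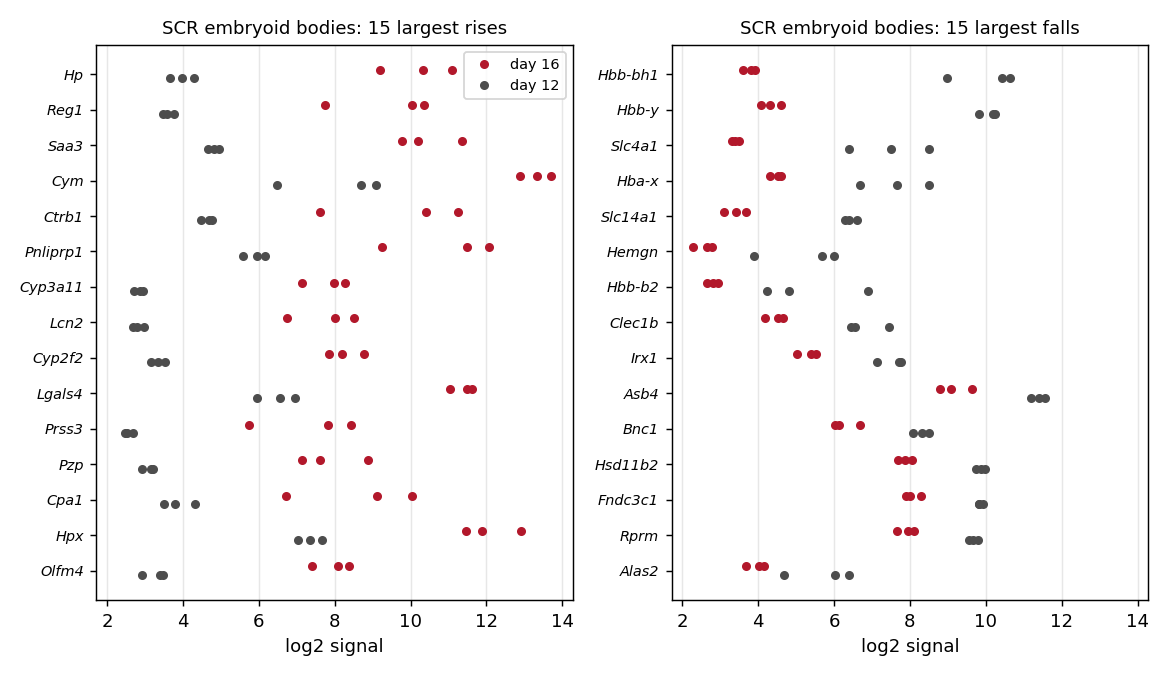
Log2 signal of the 15 genes with the largest called rises (left) and the 15 with the largest called falls (right) in SCR EBs, 1 point per array, with day 16 in red and day 12 in grey. Hp rises by 6.23 and Hbb-bh1 falls by 6.24 on the log2 scale; in no gene shown do the days overlap, which the choice of genes required.

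Genes of secreted plasma proteins had the highest median change of 35 lists. Of 29 measured, 22 rose and none fell, against 6.54% and 3.94% of all genes, and the median change was 2.40. Their mean level was 9.10, 9.55 and 10.11 in the day-16 arrays and 7.07, 7.46 and 6.93 in the day-12 arrays, so that the days did not overlap. Hp, the haemoglobin scavenger haptoglobin, was the largest rise of any named gene. It read 9.20, 10.33 and 11.09 at day 16, against 3.67, 3.97 and 4.29 at day 12 and a mean of 4.53 in ESCs. The change was 6.23 ± 0.38 (adjusted p = 8.3e-15), with the day-12 arrays all below the ESC mean. Hpx, the haem-binding protein hemopexin, read 11.46, 11.89 and 12.91 at day 16 and 7.34, 7.66 and 7.03 at day 12, a change of 4.74 ± 0.35 (adjusted p = 8.3e-13). Fetuin (Ahsg) rose by 4.27, the fibrinogen alpha chain (Fga) by 4.25 and Itih3, a hyaluronan-binding inhibitor chain, by 4.07. Array 6 was the highest of the day-16 arrays for all of these.

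Some genes of the list were already bright at day 12. Albumin and alpha-fetoprotein are named here after their values were seen. Alb read 12.91, 13.60 and 13.94 at day 16 and 10.46, 11.06 and 10.61 at day 12 (adjusted p = 1.5e-11). Afp, the fetal counterpart of albumin, read 12.13, 12.14 and 12.27 at day 16 and 11.66, 11.78 and 11.65 at day 12. Its change of 0.48 ± 0.41 was not called (limma adjusted p = 0.60), although the days did not overlap. This error rests on the spread pooled over all groups, which is larger than that of the Afp values given here.

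The fibrinogen promoter is shown because its gene rose with the list and carries the letters most frequent there among the liver motifs searched. The window of 300 bases spans the RefSeq start in GRCm38.p6 (Fga, chr3:83025903-83026202, plus strand), and capitals mark the half-site of the liver factor HNF1 (GTTAAT on either strand), which begins 43 bases before the start.
Fga: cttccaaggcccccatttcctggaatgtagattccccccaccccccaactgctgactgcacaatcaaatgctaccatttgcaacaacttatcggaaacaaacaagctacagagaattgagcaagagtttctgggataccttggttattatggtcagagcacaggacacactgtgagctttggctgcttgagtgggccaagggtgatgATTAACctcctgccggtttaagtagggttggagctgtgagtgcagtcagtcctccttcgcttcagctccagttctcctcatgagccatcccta
This half-site was found in 8 of 23 plasma protein promoters with a window (34.8%), against 7.22% of 27025 promoters. No plasma protein promoter held the letters searched for HNF4 (CAAAGTCCA) or C/EBP (TTGCGCAA), which 0.474% and 0.189% of all promoters hold. A match is a description of letters, not of binding.

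Liver enzymes rose in smaller number. Of 21 measured, 7 rose and none fell, with a median change of 0.32. Cps1, the entry enzyme of the urea cycle, read 7.36, 7.70 and 8.56 at day 16 and 4.00, 4.01 and 3.99 at day 12, a rise of 3.87 ± 0.24 (adjusted p = 1.6e-14). Otc, the next enzyme of that cycle, rose by 2.70 and the glucuronosyltransferase Ugt2b34 by 2.08. With only the groups compared in the fit, 4 rose and 1 fell. The cytochromes Cyp3a11 and Cyp2f2, which oxidise drugs and other foreign compounds, lie outside the list and are named as some of the largest rises of all genes, 4.95 ± 0.15 and 4.94 ± 0.19. The listed cytochromes Cyp2e1, Cyp7a1 and Cyp27a1, named after their values were seen, changed by 0.11, 0.04 and -0.13 and were not called. Cyp3a11 read 7.14, 7.97 and 8.26 at day 16 and 2.87, 2.71 and 2.95 at day 12. Among 18 endoderm and liver transcription factors, 4 rose and none fell (median 0.25): Hnf4a, a nuclear receptor of liver and visceral endoderm, by 1.48, Foxa3 by 1.41, the xenobiotic receptor Nr1i2 by 0.83 and Cebpb by 0.76; 1 factor fell without array 4 of day 16. The acute-phase genes Saa3 and Lcn2 were among the largest rises. Saa3 read 9.78, 10.19 and 11.35 at day 16 and 4.96, 4.66 and 4.83 at day 12 (change 5.62 ± 0.29, adjusted p = 9.9e-17), and Lcn2 rose by 4.95.

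**Figure D2:**
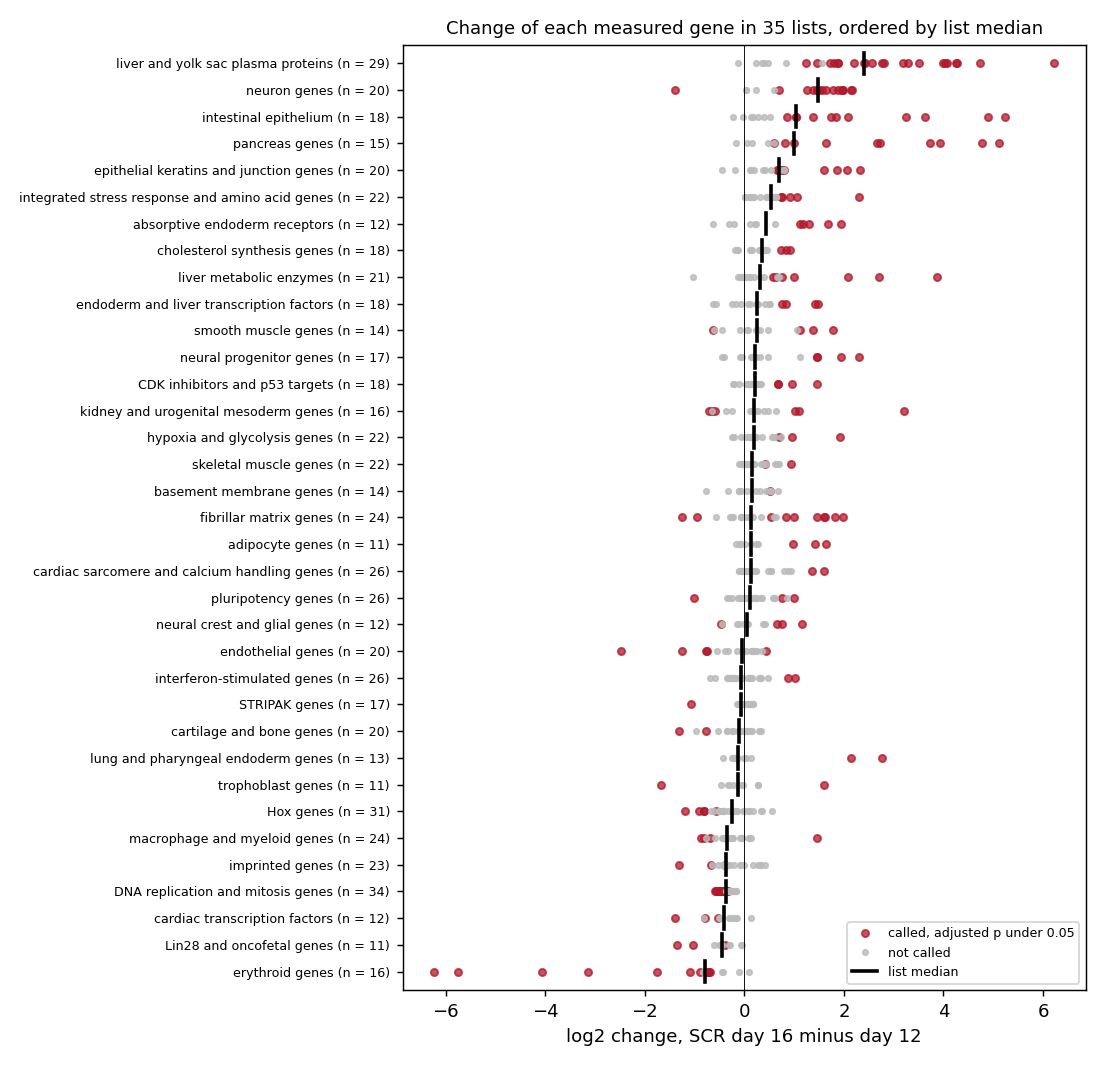
Log2 change from day 12 to day 16 in the SCR line for every measured gene of 35 lists, ordered by the list median (black bar); red points passed the test and grey points did not. Plasma proteins have the highest median (2.40) and erythroid genes the lowest (-0.78).

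Gut epithelial genes rose from low levels. Of 18 measured, 11 rose (6 with only the groups compared in the fit) and none fell, with a median of 1.04; the list level was 6.36, 6.29 and 6.59 in the day-16 arrays and 4.57, 5.01 and 4.94 in the day-12 arrays. Cym, chymosin, a milk-clotting protease of the stomach of young mammals, was at 13.33, 13.71 and 12.89 at day 16 and 6.47, 8.68 and 9.09 at day 12. Its change of 5.23 ± 0.36 (adjusted p = 2.4e-13) fell to 4.42 without array 4 of day 12, the low one. Lgals4, a lectin of gut epithelium, read 11.50, 11.03 and 11.62 at day 16 and 5.94, 6.94 and 6.57 at day 12 (change 4.90 ± 0.23, adjusted p = 1e-17). The fatty-acid carrier Fabp1 rose by 3.63, the cadherin Cdh17 by 3.25 and Krt20 by 2.08. Of the list, 7 genes were not called. Among these were Cdx2 (0.28) and, named after their values were seen, Cdx1 (-0.22), Isx (0.40) and Muc2 (0.14). Olfm4, a marker of crypt stem cells in the human intestine, rose by 4.68 and lay outside the list.

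Related epithelial lists moved less. Counts here are read against 6.54% of all genes that rose and 3.94% that fell. Of 12 genes of absorptive endoderm 5 rose (41.7%, median 0.43), and 2 with only the groups compared in the fit. The list level was 6.66 at day 16, 6.05 at day 12 and 6.70 in ESCs. The 5 included Cubn, the cobalamin uptake receptor, by 1.94 and the folate receptor Folr1 by 1.12. The zinc transporter Slc39a4 rose by 1.69, or by 1.08 without array 4 of day 12, and 1 gene of this list fell without array 4 of day 16. Of 20 epithelial keratin and junction genes 9 rose and none fell, with a median of 0.69. Krt14, a keratin of basal layers of stratified epithelium, read 6.33, 5.14 and 5.62 at day 16 and 3.28, 3.41 and 3.43 at day 12. It rose by 2.32 ± 0.28, Krt15 by 2.07, Krt19 by 1.86 and Krt7 by 1.60. Of 13 lung and pharyngeal genes 2 rose (15.4%) and none fell, and 1 rose with dim probe sets left out. The median was -0.12, with 8 negative and 5 positive changes. The 2 that rose were the mucin Muc1, by 2.77, and the chloride channel Cftr, by 2.15. Of 16 kidney and urogenital genes 3 rose, with Msln, a mesothelial surface protein, highest at 3.21, and 3 fell; the falls were 1 to 2 when any 1 array was left out, and 1 without array 5 of day 16 or array 5 or 6 of day 12.

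Digestive enzymes of the exocrine pancreas appeared among the largest rises. Of 15 pancreas genes 10 rose and none fell, with a median of 1.0. Ctrb1, chymotrypsinogen, read 7.60, 11.25 and 10.41 at day 16 and 4.77, 4.47 and 4.68 at day 12, a change of 5.11 ± 0.61 (adjusted p = 1.1e-07). Cpa1, a carboxypeptidase, read 6.72, 10.05 and 9.12 at day 16 and 4.32, 3.49 and 3.78 at day 12, a change of 4.77 ± 0.53. Reg1, a secreted lectin of acinar cells that lay outside the list, read 7.75, 10.03 and 10.36 at day 16 and 3.59, 3.77 and 3.46 at day 12, a change of 5.77 ± 0.47. In these genes array 4 of day 16 was the lowest of its day and still above all day-12 arrays. Pnliprp1, a lipase-related protein, rose by 5.03, the trypsinogen Prss3 by 4.79, the elastase Cela1 by 3.93 and the bile-salt lipase Cel by 3.72.

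The pancreatic values turned on array 4 of day 16. The list level was 5.35, 6.72 and 6.37 in day-16 arrays 4, 5 and 6, against 4.33, 4.16 and 4.33 in day-12 arrays 4, 5 and 6. Without array 4 of day 16 the changes were 6.59 for Reg1, 6.19 for Ctrb1, 5.88 for Pnliprp1, 5.72 for Cpa1, 5.58 for Prss3, 4.93 for Cel and 4.78 for Cela1. Without array 5 of day 16 they were 4.36 for Ctrb1, 4.06 for Cpa1 and 2.92 for Cel; every one of these was still called. Probe sets of trypsinogens and chymotrypsinogens can share sequence with close relatives, so these values are of the probe set and not surely of 1 gene. Of endocrine genes, Chgb, a granule protein of endocrine cells and neurons, rose by 2.73. The acinar factor Ptf1a, named after its values were seen, read 4.50, 5.97 and 5.54 at day 16 and 3.71, 3.59 and 3.75 at day 12 (adjusted p = 1.7e-07). Pdx1, the factor of early pancreas, named likewise, read 3.82, 4.35 and 3.87 at day 16 and 4.08, 3.89 and 3.88 at day 12 and was not called (adjusted p = 0.91).

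Red cell genes fell. Of 16 measured erythroid genes 11 fell and none rose, against 3.94% and 6.54% of all genes, and the median was -0.78. The embryonic beta-like globin Hbb-bh1 read 3.60, 3.91 and 3.80 at day 16 and 10.42, 8.98 and 10.64 at day 12, a change of -6.24 ± 0.43 (adjusted p = 2.4e-13). Hbb-y, the other embryonic beta-like globin, read 4.06, 4.59 and 4.31 at day 16 and 10.24, 9.82 and 10.19 at day 12, a change of -5.76 ± 0.28 (adjusted p = 1.2e-17). No array overlapped between the days in either gene, and both stood at day 16 near their ESC means (3.73 and 3.84). The embryonic alpha-like globin Hba-x changed by -3.14 and Slc4a1, the anion exchanger of the red cell membrane, by -4.06.

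Over the whole course the list level was highest at day 8. Hbb-bh1 averaged 3.73 in ESCs, 4.50 at day 4 and 13.59 at day 8, and Hba-x 4.53, 4.63 and 12.34. The erythroid list level was 4.43 in ESCs, 4.57 at day 4, 7.64 at day 8, 5.93 at day 12 and 4.21 at day 16. Hbb-b2, an adult beta globin, read 2.65, 2.94 and 2.82 at day 16 and 6.89, 4.22 and 4.80 at day 12; its change of -2.50 ± 0.34 was -1.71 without array 4 of day 12. It averaged 3.32 at day 8, below day 12. Globin probe sets can cross-hybridise between copies. Hemgn, a nuclear protein of blood progenitors and red cell precursors, changed by -2.61, or by -3.26 without array 5 of day 12, and Slc14a1, the urea transporter of red cells, by -3.03, with a day-8 mean of 5.84 and a day-12 mean of 6.43. Without array 4 of day 12, 7 of the 16 genes fell.

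Alas2, the red cell enzyme of the first step of haem synthesis, read 3.68, 4.15 and 4.01 at day 16 and 6.40, 4.68 and 6.02 at day 12, a change of -1.75 ± 0.33 (adjusted p = 0.00032). Its promoter is shown because it holds the GATA letters of the erythroid list (AGATAA on either strand). The window has the same span and build (Alas2, chrX:150547167-150547466, plus strand), and capitals mark a TATA match (TATAAA, 209 bases before the start) and then the GATA match (86 bases before).
Alas2: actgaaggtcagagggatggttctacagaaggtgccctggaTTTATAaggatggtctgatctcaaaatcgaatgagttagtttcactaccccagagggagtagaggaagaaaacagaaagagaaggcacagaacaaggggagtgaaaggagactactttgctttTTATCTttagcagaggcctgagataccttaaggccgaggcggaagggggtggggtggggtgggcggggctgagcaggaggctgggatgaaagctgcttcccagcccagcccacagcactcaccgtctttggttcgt
GATA letters were in 5 of 12 erythroid promoters with a window (41.7%), against 11.4% of all promoters, and TATA letters in 4 of 12 (33.3%), against 14.2%.

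Other blood and vessel lists changed in fewer genes. The shares that rose, 4.17% of myeloid and 5.0% of endothelial genes, were near the 6.54% of all genes and are no result about the lists. Of 24 macrophage and myeloid genes 3 fell and 1 rose (median -0.34); no fall remained without array 4 of day 12, 1 gene fell without array 6 of day 16 and 8 without array 6 of day 12. The gene that rose was Cd14, the endotoxin co-receptor, by 1.45. Of 20 endothelial genes 4 fell and 1 rose, and the median of -0.04 became 0.01 under cyclic loess; the rise was lost without array 5 of day 16 or array 4 or 5 of day 12. Aplnr, the apelin receptor, read 7.64, 7.89 and 8.13 at day 16 and 9.09, 8.94 and 9.41 at day 12 (change -1.26 ± 0.21), and the angiopoietin receptor Tek fell by 0.75. Lyve1, a receptor of lymphatic vessels and some macrophages, read 6.66, 3.46 and 3.83 at day 16 and 8.39, 6.59 and 6.39 at day 12, and the days overlapped. Its change of -2.47 ranged with the array left out: it was -3.48 without array 4 of day 16, -1.88 without array 5 of day 16 and -1.84 without array 4 of day 12. Clec1b, a receptor of platelets and megakaryocytes, fell by 2.36.

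**Figure D3:**
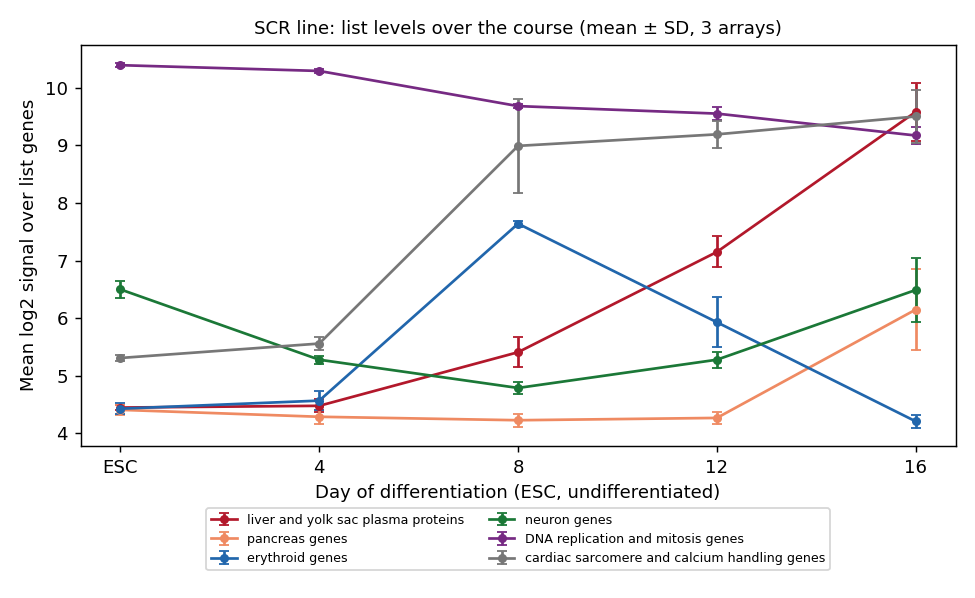
Mean log2 signal over the measured genes of 6 lists in the SCR line as ESCs and at days 4, 8, 12 and 16 (points, mean of 3 arrays; bars, SD). The erythroid list level is highest at day 8 (7.64) and lies at 4.21 at day 16, and the pancreas list stays between 4.23 and 4.41 until day 12 and reaches 6.15 at day 16. Levels of different lists come from different probe sets and are not comparable with each other.

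Neuronal genes rose together. Of 20 measured, 15 rose and 1 fell, with a median of 1.48. Stmn3, a microtubule regulator of neurons, read 7.43, 9.02 and 8.11 at day 16 and 6.11, 5.83 and 6.15 at day 12, a change of 2.16 ± 0.38 (adjusted p = 0.00012). Dcx, doublecortin of migrating neurons, read 6.20, 7.97 and 6.74 at day 16 and 4.97, 4.61 and 4.89 at day 12, a change of 2.15 ± 0.39. Array 5 of day 16 was the highest in both, and the days did not overlap. The synaptic protein Snap25 rose by 1.98, or by 1.34 without array 5 of day 16. Neuronal tubulin Tubb3 rose by 1.97 ± 0.44, and without array 5 of day 16 the change was 1.38 and was not called.

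The neuron list level was 6.02, 7.11 and 6.35 in day-16 arrays 4, 5 and 6 and 5.29, 5.13 and 5.42 in day-12 arrays 4, 5 and 6. Its mean was 6.50 in ESCs, 5.28 at day 4, 4.79 at day 8, 5.28 at day 12 and 6.49 at day 16. The list at day 16 was thus not above its ESC level. Single genes differed in this: in ESCs Tubb3 read 7.73, 7.77 and 7.75, and Dcx 3.76, 3.25 and 3.40. Without array 5 of day 16, 9 of the 20 genes rose. The gene that fell was Isl1, a factor of motor neurons that is also made in cardiac progenitors and is on both lists: it read 7.66, 7.38 and 7.74 at day 16 and 8.99, 8.83 and 9.13 at day 12. Of 17 neural progenitor genes 4 rose and none fell (median 0.22), with Pax6, a factor of eye and forebrain, at 2.31, Fabp7 of radial glia at 1.94, and Neurog2 and Ptprz1 at 1.47 each. Of 12 neural crest and glial genes 3 rose and 1 fell, with Aldh1l1 of astrocytes at 1.16 and Erbb3 at 0.66; the fall was lost without array 5 of day 16 or array 4 of day 12.

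Contractile genes of the heart were bright on both days, and few moved. Of 26 genes of the sarcomere and calcium handling 2 rose and none fell (median 0.13), and the 7.69% that rose is near the 6.54% of all genes. Myl2, the ventricular myosin light chain, read 12.86, 12.73 and 12.95 at day 16 and 12.73, 12.81 and 12.77 at day 12, and Actc1, cardiac actin, read 11.86, 12.36 and 12.73 at day 16 and 12.73, 12.03 and 12.33 at day 12. The days overlapped in both, with changes of 0.08 ± 0.49 and -0.05 ± 0.50. Casq2, the calcium store protein of the cardiac reticulum, read 7.24, 6.77 and 7.36 at day 16 and 5.51, 5.50 and 5.56 at day 12, a rise of 1.60 ± 0.14 (adjusted p = 7.8e-11). Nppa, the atrial natriuretic peptide, read 3.58, 4.31 and 6.11 at day 16 and 3.15, 3.38 and 3.43 at day 12. Its rise of 1.35 rested on array 6 of day 16: without it the change was 0.62 and was not called. Of 12 cardiac transcription factors 3 fell and none rose (median -0.40), with Isl1 lowest at -1.39, and 1 fell without array 4 or 5 of day 12 or with only the groups compared in the fit.

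Of 22 skeletal muscle genes 2 rose (median 0.15), among them the creatine kinase Ckm by 0.93. This share, 9.09%, is near the 6.54% of all genes and is no result about the list. Of 14 smooth muscle genes 3 rose (21.4%) and 1 fell (7.14%, against 3.94% of all genes), with the myosin kinase Mylk highest at 1.78. These counts turned on single arrays. Without array 4 of day 16, 5 genes of each list rose. In skeletal muscle 1 rose without array 5 or 6 of day 16 or array 4 or 6 of day 12, and none with only the groups compared. In smooth muscle 1 rose without array 5 of day 16 or array 5 of day 12, and none fell without array 5 or 6 of day 16 or array 4 of day 12. Matrix genes changed in both directions. Of 24 fibrillar matrix genes 8 rose and 2 fell, and the median was 0.14. Aspn, asporin, a collagen-binding proteoglycan, read 8.00, 7.65 and 8.03 at day 16 and 5.38, 6.62 and 5.75 at day 12, a rise of 1.98 ± 0.18 (adjusted p = 3.4e-10). Thbs2, a thrombospondin, rose by 1.83, biglycan (Bgn) by 1.63, elastin (Eln) by 1.61 and Mgp, an inhibitor of calcification, by 1.45. Of 20 cartilage and bone genes 2 fell and none rose, Col2a1 by 1.32 and Col11a1 by 0.76, both collagens of cartilage. Of 14 basement membrane genes 1 rose (7.14%), which is near the share of all genes and is no result about the list. None rose without array 4 or 5 of day 16 or array 4 or 5 of day 12, and 1 fell without array 4 of day 16.

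Genes of DNA replication and mitosis fell by small amounts. Of 34 measured, 20 fell, against 3.94% of all genes, and none rose. All 34 had a negative change, with a median of -0.37, against -0.04 over all genes. The list level was 9.26, 9.25 and 9.01 in the day-16 arrays and 9.46, 9.52 and 9.66 in the day-12 arrays. Cenpa, the histone variant of centromeres, read 9.50, 9.74 and 9.31 at day 16 and 10.07, 9.98 and 10.28 at day 12, a change of -0.59 ± 0.10 (adjusted p = 6.3e-05). Bub1, a kinase of the spindle checkpoint, changed by -0.57, Aurkb by -0.55, Ttk by -0.54 and Plk1 by -0.50. The number of falls was 8 without array 6 of day 16, 11 without array 6 of day 12 and 3 when only the 6 SCR arrays entered the fit. Testing against a 1.5-fold change left 0 falls in the list.

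A cell-cycle promoter is shown because its letters recur across these genes. In Ttk, the kinase that starts the spindle checkpoint (chr9:83834439-83834738, plus strand, same span and build), capitals mark 2 CCAAT boxes, 65 and 28 bases before the start, and the cell cycle homology letters TTTGAA on the minus strand, 7 bases after it.
Ttk: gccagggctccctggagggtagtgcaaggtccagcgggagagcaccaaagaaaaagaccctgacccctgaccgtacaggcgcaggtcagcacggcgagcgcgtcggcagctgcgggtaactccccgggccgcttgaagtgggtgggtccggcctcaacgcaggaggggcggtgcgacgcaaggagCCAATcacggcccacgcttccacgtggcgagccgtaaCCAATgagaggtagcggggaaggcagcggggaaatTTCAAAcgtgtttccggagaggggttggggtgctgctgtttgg
CCAAT was in 22 of 28 promoters of the list (78.6%), against 38.0% of all promoters, and TTTGAA in 13 of 28 (46.4%), against 18.2%, both strands searched.

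Among 18 CDK inhibitors and p53 targets 4 rose and none fell (median 0.21). The cell death factor Pmaip1 rose by 1.46, Btg2 by 0.95 and Cdkn1a by 0.68. Of 11 genes of the Lin28 and oncofetal list 3 fell and none rose (median -0.44), and 6 fell without array 4 of day 16. Hmga2, a chromatin protein of fetal tissue, read 11.04, 10.90 and 10.88 at day 16 and 12.29, 12.30 and 12.27 at day 12, a change of -1.35 ± 0.22, and the RNA-binding protein Igf2bp1 changed by -1.03 ± 0.10 (adjusted p = 4.4e-10). Of 31 Hox genes 5 fell (1 with only the groups compared in the fit) and none rose (median -0.25), with Hoxc8 at -1.19, Hoxb4 at -0.81 and Hoxa4 at -0.80. Of 23 imprinted genes 3 fell and none rose (median -0.36), with Peg10 at -1.31, and 1 fell without array 5 or 6 of day 16, without array 5 of day 12 or with only the groups compared. Irx1, a homeobox factor, fell by 2.23 and Asb4, a ubiquitin ligase subunit, by 2.21.

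Stress and metabolic lists were read against 6.54% of all genes that rose and 3.94% that fell. The shares that rose were 22.7% of integrated stress response genes, 16.7% of cholesterol synthesis genes and 27.3% of adipocyte genes. Of 22 genes of the integrated stress response and amino acid supply 5 rose and none fell (median 0.53), and all 22 changes were positive; 3 rose without array 4 or 6 of day 16 or array 6 of day 12. Nupr1, a stress-induced nuclear protein, read 9.07, 9.20 and 9.22 at day 16 and 6.63, 7.04 and 6.93 at day 12, a rise of 2.30 ± 0.44 (adjusted p = 0.00037). Of 22 hypoxia and glycolysis genes 3 rose (13.6%), with Ndrg1 highest at 1.93; 5 rose without array 4 of day 16, and 1 without array 5 or 6 of day 16 or array 5 of day 12. Of 18 cholesterol synthesis genes 3 rose (median 0.36), with Ebp at 0.91; 6 rose without array 4 of day 16, 7 without array 6 of day 12 and 1 with only the groups compared. Of 11 adipocyte genes 3 rose, with the carrier Fabp4 at 1.64 and the receptor Pparg at 1.42. Of 26 interferon-stimulated genes 2 rose (median -0.06), of 26 pluripotency genes 2 rose and 1 fell, Sall4 by 1.01, and of 17 STRIPAK genes 1 fell, the kinase Stk26 by 1.07. These shares (7.69% of interferon and of pluripotency genes up, 3.85% of pluripotency and 5.88% of STRIPAK genes down) are near those of all genes and are no result about the lists. The interferon rises were 1 without array 5 or 6 of day 16, with 1 fall without array 4 of day 16, and the pluripotency rises 1 without array 4 or 6 of day 16 or array 4 of day 12.

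The change was then set against that of the other lines over the same days, with a test of the difference of changes in the same fit. Against WT, 91 genes (0.5%) had a higher and 115 (0.632%) a lower change in SCR, out of 18193, and 1691 genes had an unadjusted p under 0.05. Among genes that rose in SCR, 81 had a higher change than in WT and 13 a lower one, and among genes that fell, 22 had a lower change than in WT and 1 a higher one. The plasma protein list had a median change of 2.40 in SCR and 2.19 in WT, with 1 of 29 genes above and 1 below the WT change; 3 were above without array 4 of day 16, and none without array 6 of day 16 or array 4 or 6 of day 12. The neuron list had 1.48 in SCR and 1.19 in WT, with 1 of 20 below (none without array 5 of day 16 or array 4 or 6 of day 12), and the erythroid list -0.78 in SCR and -1.16 in WT, with no gene of 16 called for a difference. The mitosis list had -0.37 in SCR and -0.09 in WT, and 1 of 34 genes was below the WT change, 2 without array 4 of day 16 and none without array 6 of either day.

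The pancreas list differed from WT in 5 of 15 genes, all above the WT change, against 0.5% of all genes. Prss3 averaged 7.34 ± 1.41 in SCR at day 16 and 2.55 ± 0.11 at day 12 (SD, n = 3 each). In WT it averaged 3.10 ± 0.76 at day 16 and 2.58 ± 0.15 at day 12 (SD, n = 3 each). Its SCR change was higher by 4.27 ± 0.47 (limma adjusted p = 1.8e-07). That error rests on the spread pooled over all groups, which is smaller than the spread of SCR at day 16. The SCR change was higher by 4.05 for Reg1, 3.80 for Cela1, 3.70 for Cpa1, 3.63 for Ctrb1 and 3.05 for Cel. In WT the day-16 arrays were far apart: Ctrb1 averaged 6.27 ± 2.31 and Cpa1 4.86 ± 1.88 (SD, n = 3), with a single array high. None of these differences in pancreatic genes was called when the fit held only the 12 SCR and WT arrays of the 2 days. In the fit to all arrays, the Ctrb1 difference lost its call without SCR array 5 (2.88) or 6 (3.30) of day 16 or array 5 (3.54) or 6 (3.65) of day 12. The Cel difference kept its call only when no array, or array 4 of day 16, was left out, and it was 2.25 without array 5 and 2.64 without array 6 of day 16 and 3.0 to 3.08 without an array of day 12. In the list, 3 of 15 genes differed when any 1 of SCR arrays 5 and 6 of day 16 or 5 and 6 of day 12 was left out. Olfm4 rose by 2.56 more in SCR than in WT.

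Trophoblast genes went the other way. Of 11 measured, 4 had a lower change in SCR than in WT, against 0.632% of all genes. The number was 3 with only the compared groups in the fit. The list median was -0.12 in SCR and 1.11 in WT. In SCR EBs 1 gene rose, Krt7, which is also on the keratin list, and Plac1 fell by 1.68. Each is 9.09% of the list, against 6.54% of all genes that rose and 3.94% that fell. The 5 largest negative differences of all named genes were of placental proteases, serpins and prolactins. Ctsj, a placental cathepsin, read 2.34, 2.28 and 2.49 in SCR at day 16 and 2.33, 2.74 and 2.25 at day 12, and averaged 8.61 ± 0.29 in WT at day 16 and 3.75 ± 0.64 at day 12 (SD, n = 3 each). Its SCR change was lower by 4.93 ± 0.34 on the log2 scale (limma adjusted p = 6.1e-12), that is, a difference of -4.93. The differences were -4.16 for Serpinb9g, -3.70 for Prl7d1, -3.45 for Prl2a1 and -3.25 for Serpinb9c. The trophoblast factor Elf5 had a difference of -2.88; at day 16 it read 6.47, 5.50 and 5.83 in SCR, and at day 12 it read 6.09, 6.67 and 5.99 in SCR, against WT means of 6.52 at day 16 and 3.96 at day 12.

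**Figure D4:**
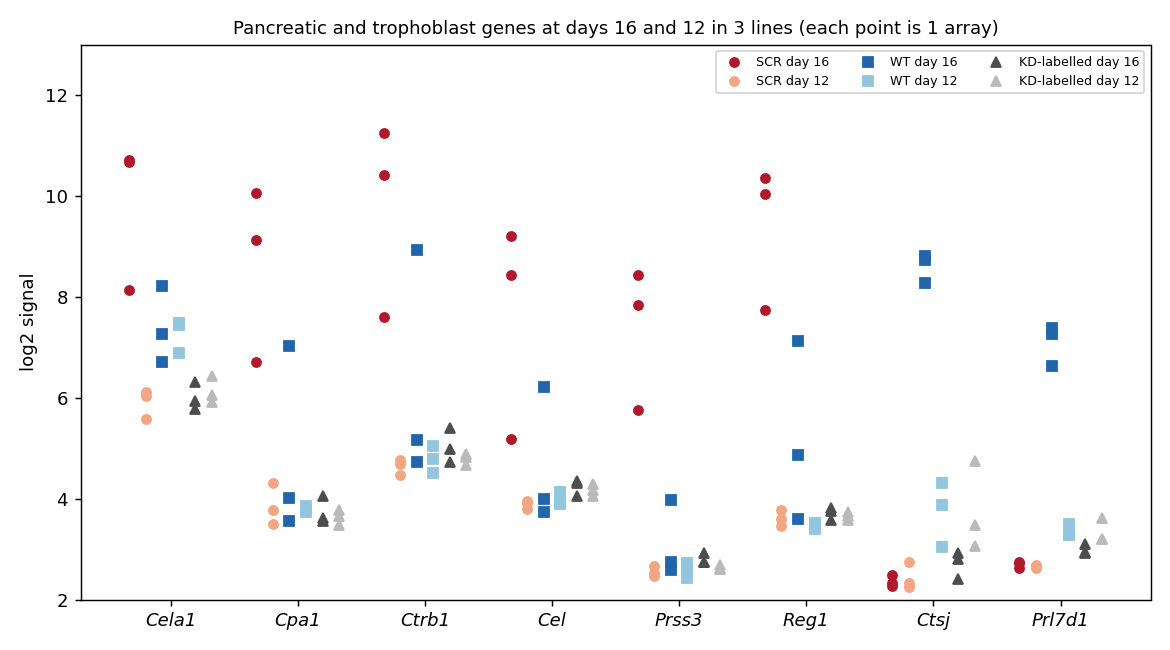
Log2 signal of 6 pancreatic and 2 placental genes in SCR, WT and KD-labelled EBs, 1 point per array, with day 16 left of day 12 within each line. In each pancreatic gene arrays 5 and 6 of SCR day 16 lie above every WT and KD-labelled array, and Ctsj and Prl7d1 exceed 6 only in WT arrays of day 16.

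Smaller differences from WT touched mesenchyme, epithelium and heart. Over all genes, 0.5% had a higher and 0.632% a lower change in SCR than in WT. Of the fibrillar matrix genes 4 of 24 had a higher change in SCR, among them Aspn by 1.75, Thbs2 by 1.22 and Eln by 0.74. Aspn averaged 7.89 in SCR at day 16 and 5.92 at day 12, and 7.77 in WT at day 16 and 7.54 at day 12. Of the keratin and junction genes 3 of 20 had a lower change in SCR, with Krt14 at -1.77, and of the Hox genes 3 of 31, with Hoxa4 at -1.04; none of the matrix and keratin genes and 1 Hox gene were called with only the compared groups in the fit. The Hoxa4 difference was not called without array 5 (-0.98) or 6 (-1.03) of day 16 or array 4 of day 12 (-0.82), that of Krt14 without array 5 of day 16 (-1.49), or that of Eln without array 5 of day 16 (0.66), and 1 Hox gene differed without array 4 of day 12. Casq2 had a difference of 1.42 and Nppa of 2.33. The Nppa difference was not called with only the compared groups in the fit. Nppa averaged 3.37 in WT at day 16 and 4.35 at day 12. Irx1 had a difference of -2.11: WT averaged 5.24 at day 16 and 5.36 at day 12.

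Against the KD-labelled line 859 genes (4.72%) had a higher and 343 (1.89%) a lower change in SCR. Of these calls 71.5% were higher, against 54.8% once arrays were centred. Strip2 averaged 4.85 ± 0.66 in SCR EBs at day 16 and 4.67 ± 0.21 at day 12, against 3.28 ± 0.24 in KD-labelled EBs at day 16 and 3.75 ± 0.17 at day 12 and 2.88 ± 0.32 in WT EBs at day 16 and 3.12 ± 0.13 at day 12 (SD, n = 3 each). Its means under the KD label were below those of SCR and not below those of WT, and the line is named here by its label. The median KD change was 0.12 for plasma proteins, 0.06 for neurons, 0.14 for erythroid genes and 0.11 for pancreas genes, where SCR had 2.40, 1.48, -0.78 and 1.0. Of the members, 22 of 29 plasma protein genes, 10 of 20 neuron genes and 7 of 15 pancreas genes had a higher change in SCR, and 8 of 16 erythroid and 8 of 34 mitosis genes a lower one. The neuron count was 3 without array 5 of day 16 and 5 without array 5 of day 12, and the mitosis count was 2 without array 6 of day 16, 4 without array 6 of day 12 and 3 with only the compared groups.

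Many of these genes were low on both days in the KD-labelled line. Hp averaged 4.54 ± 0.19 there at day 16 and 4.27 ± 0.15 at day 12 (SD, n = 3 each), and its change was higher by 5.96 ± 0.54 in SCR (limma adjusted p = 6.2e-10). Hbb-bh1 averaged 4.24 ± 0.27 at day 16 and 3.72 ± 0.16 at day 12 in KD-labelled EBs, and the difference of changes was -6.77 ± 0.61. The differences were 5.72 for Reg1, 5.47 for Saa3, 5.22 for Cym and 5.06 for Lcn2, and on the other side -5.82 for Hbb-y, -4.20 for Slc4a1, -3.28 for Hba-x and -3.06 for Slc14a1.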

How the data were processed

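The authors deposited log2 signals per probe set for 45 arrays; the submitters' processing notes name Affymetrix Expression Console, Partek 6.6 and RMA, with no role or order, and the scans were not used here. Groups came from the titles. A cell type label calls the first day-8 array of each line undifferentiated, and these arrays were kept at day 8 by their titles. Probe sets were named from the platform annotation: 34945 had 1 symbol, of which 204 kept theirs as annotated, 932 had several and 9160 none listed. Genes were represented by the probe set with the highest mean over all arrays.

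All 45 arrays entered 1 linear model, with a mean for each group (R 4.3.3, limma 3.58.1; data read with data.table, version 1.17.8), with 30 residual and 4.88 prior degrees of freedom, and p-values were adjusted over all 34945 probe sets; no filter on level was applied. Errors of changes are limma's SE, from the spread pooled over all groups and not from the compared arrays alone. The members, the 35 gene lists and the tests were chosen with earlier results of these data known. Named genes were Strip2, the 15 largest called rises and falls with no overlap between days, up to 5 called members per list (with fewer than 3 calls, 2 further bright members), and the 5 largest differences each way from WT and KD; those named after their values were seen are marked. List members without a measured probe set were not analysed here. Promoter windows and letters are from RefSeq (GRCm38.p6). The procedure was tested on simulated data, and 15 alternatives were tried. The number of arrays limits the precision.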

Additional observations from a re-analysis of the deposited data

Results flagged for a closer look

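Named genes whose change from day 12 to day 16 differed between lines by the test of that difference are given by the difference of changes on the log2 scale. Against WT, the SCR change was higher by 4.27 for Prss3, 4.05 for Reg1, 3.80 for Cela1, 3.70 for Cpa1, 3.63 for Ctrb1 and 3.05 for Cel, all of the pancreas. It was higher by 2.56 for Olfm4, 1.99 for Lcn2, 1.88 for Pzp, 1.79 for Krt20, 1.63 for Cdh17, 1.42 for Cd14 and 1.35 for Cyp3a11. In heart and matrix genes it was higher by 2.33 for Nppa, 1.75 for Aspn, 1.42 for Casq2, 1.22 for Thbs2 and 0.74 for Eln.

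The difference from WT was -4.93 for Ctsj, -4.16 for Serpinb9g, -3.70 for Prl7d1, -3.45 for Prl2a1, -3.25 for Serpinb9c and -2.88 for Elf5, genes of the placenta. It was -2.11 for Irx1, -1.77 for Krt14, -1.64 for Isl1, -1.26 for Gata3, -1.04 for Hoxa4 and -0.80 for Hoxc4.

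With only the SCR and WT arrays of these days in the fit, 21 of the 30 differences from WT were not called. The calls were kept for Olfm4, Casq2, Irx1, Elf5, Ctsj, Serpinb9g, Serpinb9c, Prl7d1 and Prl2a1. Without 1 SCR array, calls were also lost for Pzp (1.38 without array 6 of day 16), Isl1 (-1.53 without array 5 of day 16, -1.63 and -1.56 without array 4 or 6 of day 12), Hoxc4 (-0.77 and -0.69 without array 4 or 6 of day 16, -0.78 and -0.74 without array 4 or 6 of day 12), and for the array-dependent cases of Cel, Ctrb1, Hoxa4, Krt14 and Eln given with the comparison.

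Against the KD-labelled line the difference was 5.96 for Hp, 5.72 for Reg1, 5.47 for Saa3, 5.22 for Cym and 5.06 for Lcn2. It was -6.77 for Hbb-bh1, -5.82 for Hbb-y, -4.20 for Slc4a1, -3.28 for Hba-x and -3.06 for Slc14a1.

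Of the 10092 probe sets with several genes or none listed, which entered no comparison above, 349 were called between day 16 and day 12 of the SCR line, 251 higher and 98 lower.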

How the results depend on the processing

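No named gene changed direction from day 12 to day 16 past the threshold in any alternative run that held it. The run with dim probe sets left out held 113 of the 146 named called genes. Genes not named were followed by counts of calls alone. With only the groups compared in the fit, 792 genes rose and 366 fell between the days (1190 and 717 in all 45 arrays), and 12 and 36 differed from WT (91 and 115). With dim probe sets left out, 753 rose, 302 rose and 56 fell at least 2-fold (515 and 88), 29 and 41 differed from WT, and 535 exceeded the KD-labelled change (859). Testing against a 1.5-fold change left 320 rises and 31 falls. With arrays centred on their medians, 606 genes had a lower change than the KD-labelled line (343). Leaving out 1 SCR array at a time gave 920 to 1163 rises, 358 to 596 falls, 491 to 597 and 79 to 110 of at least 2-fold, 69 to 158 and 86 to 138 differences from WT, and 666 to 885 and 186 to 320 from the KD-labelled line. The fewest falls came without array 6 of day 16, and the 158 without array 4 of day 16. Of 146 named called genes, 41 lost the call with only the groups compared, 73 against 1.5-fold, 3 with centred arrays, 2 under cyclic loess and 8 to 24 without 1 array. The median change of all probe sets was -0.0467 as deposited, -0.09 with centred arrays and -0.0179 under cyclic loess.

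Same-numbered arrays of the days deviated with correlations of -0.05, -0.343 and -0.323. Array 4 of day 16 gave 0.391 with array 5 of day 12, array 5 gave 0.548 with array 6, and array 6 gave 0.371 with array 4. The other differently numbered matches gave -0.289, -0.27 and -0.028. So few arrays per day cannot decide whether arrays of the days were paired, under the same or other numbers. With the replicate number as a block, 1946 genes were called (1907 without), and no named gene lost its call.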
